A study of Homo sapiens with 45 samples.

Results

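The genes described here are 10 that belong to the stress response run by the transcription factors ATF4 and CHOP (the product of DDIT3): ATF4, ATF3 and DDIT3, the metabolic enzymes ASNS and CHAC1, the signalling inhibitors TRIB3, SESN2 and DDIT4, the ligand gene INHBE and the lipoprotein receptor gene VLDLR. They were picked by name out of 19775 genes measured, with earlier results of these data known, including the difference between culture batches that is given below. All 10 were on the array, with 15 probe sets between them, and the probe set with the highest mean over all arrays stands for each gene unless another is named. Values were measured on 45 Affymetrix U133 plus 2.0 arrays of A375, an established human melanoma cell line. Of these arrays, 39 each hold RNA from cells given a different siRNA pool against a transcription factor, signalling molecule or cell cycle gene, 3 hold RNA from cells given control siRNA and 3 from untreated cells. Cells were harvested 48 hours after transfection, and the labels give 100 nM of siRNA whereas the study's methods give a lower concentration. Each targeting siRNA has 1 array and no replicate. The study worked in 3 batches, with 9 of these 39 arrays in KD1, 23 in KD2 and 7 in KD3 (siRNA against CCNB2, ETS1, MCM2, MITF, PIAS1, SP1 and STAT3). It gives no batch for the control siRNA and untreated arrays. Since every siRNA was used in a single batch, a batch and its set of siRNAs cannot be told apart.

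Cells that run short of amino acids, accumulate misfolded protein in the endoplasmic reticulum, lack haem or sense double-stranded RNA activate kinases that phosphorylate the translation factor eIF2. This lowers protein synthesis in general but raises translation of ATF4, which then induces genes of amino acid supply and, with CHOP, genes of adaptation or cell death. ATF4 binds with C/EBP factors to a composite DNA element, and its targets include feedback inhibitors of the same response.

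The composite element is usually written TGATGNAA, and this motif was searched for on both strands of RefSeq promoter windows (build GRCh38.p14, 250 bases before to 50 bases after a transcription start). Of the 10 genes, 9 had a window in the table used, the other being INHBE, and the window of CHAC1 and 1 of the 2 windows each of ASNS and ATF3 held the motif. Over all windows in the table, 1270 of 35116 (3.62%) held it, or 1217 of 27305 genes (4.46%) in at least 1 window. The 250 bases before the start are shown for these 3 genes, since they are the members whose windows carry the letters, with the motif in capitals, 5′ to 3′ on the strand of the gene. For ASNS (chr7:97872409-97872658, minus strand) the motif starts at position -68 from the start, for CHAC1 (chr15:40953221-40953470, plus strand) it lies on the opposite strand at -209, and for ATF3 (chr1:212565157-212565406, plus strand) it starts at -191.
ASNS: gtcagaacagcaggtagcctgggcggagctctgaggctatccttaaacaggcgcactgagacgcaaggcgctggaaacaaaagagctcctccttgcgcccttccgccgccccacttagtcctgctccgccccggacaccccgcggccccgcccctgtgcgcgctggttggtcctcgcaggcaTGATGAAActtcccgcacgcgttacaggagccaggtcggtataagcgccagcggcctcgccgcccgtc
CHAC1: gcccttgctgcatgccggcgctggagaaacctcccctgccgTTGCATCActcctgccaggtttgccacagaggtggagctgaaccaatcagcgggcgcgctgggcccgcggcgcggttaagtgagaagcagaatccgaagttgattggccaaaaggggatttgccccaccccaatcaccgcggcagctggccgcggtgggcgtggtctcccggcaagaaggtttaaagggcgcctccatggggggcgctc
ATF3: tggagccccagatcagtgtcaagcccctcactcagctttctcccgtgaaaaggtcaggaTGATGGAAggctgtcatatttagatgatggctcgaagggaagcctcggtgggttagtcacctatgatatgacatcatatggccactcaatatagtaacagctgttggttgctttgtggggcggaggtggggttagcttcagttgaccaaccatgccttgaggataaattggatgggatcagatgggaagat
Among other genes of the pathway, the windows of 7 of 10 aminoacyl-tRNA synthetase genes held the motif. The 30 bases around it are shown for 3 of them, the measured genes of that list whose match lies nearest before the start, because the list is described below; in each the match is on the opposite strand. They come from chr11:3057407-3057436 (minus strand) for CARS1, chr9:92293692-92293721 (minus strand) for IARS1 and chr7:30594834-30594863 (plus strand) for GARS1.
CARS1: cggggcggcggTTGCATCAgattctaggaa
IARS1: ttttcagcgcgTTGCATCAcctccgtgcgc
GARS1: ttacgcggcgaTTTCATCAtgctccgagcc
The motif was also in the windows of 4 of 8 amino acid transporter genes and of none of 7 genes of amino acid synthesis and one-carbon metabolism. A match describes these letters only, and no binding was measured.

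The authors' normalised intensities were taken to log2, and a probe set under 8.59 on this scale, 1.5 times the median of a spiked bacterial control, was taken as below noise. Of the 39 targeted genes, 37 had a gene name here, and each of the 37 was lowest in the array of its own siRNA among the arrays of its batch, with differences from the batch median of -2.27 to -0.65 on the log2 scale. The study selected its siRNAs by how far they lowered their targets and read this on the arrays, so low values were favoured in advance. By their median over all arrays, the melanocyte markers SOX10, S100B and MITF were above noise and MLANA, PMEL, TYR, TYRP1 and S100A1 below it, and no epithelial, leukocyte, endothelial or fibroblast marker of the 16 measured was above it. Control siRNA array 3 and untreated array 3 were nearly the same array, with 95.4% to 100% of probe sets within 10% of each other against at most 62.0% in any other pair. Results that rest on these arrays are given with and without them.

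The stress response genes were all higher in batch KD3 than in batch KD2. The difference in mean log2 value ran from 0.82 for VLDLR to 6.01 for INHBE, with a median of 2.50, against a median of -0.03 over all genes. These differences are a description and carry no test, because they were known when the genes were chosen. In 8 of 10 genes the difference was at least 2-fold (2 of these, ATF3 and CHAC1, were below noise in every siRNA array), where 1.95% of all genes were at least 2-fold higher with an adjusted p under 0.05 in limma. In 9 of 10 genes every KD3 array lay above every array of KD1 and KD2, as it did in 6.55% of all genes. The gene outside this count was DDIT4, because of the array of PIK3CB siRNA, and without that array the count was 10 of 10 beside 6.73% of all genes. In bulk samples, more cells that express a gene and more RNA per cell cannot be told apart.

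**Figure D1:**
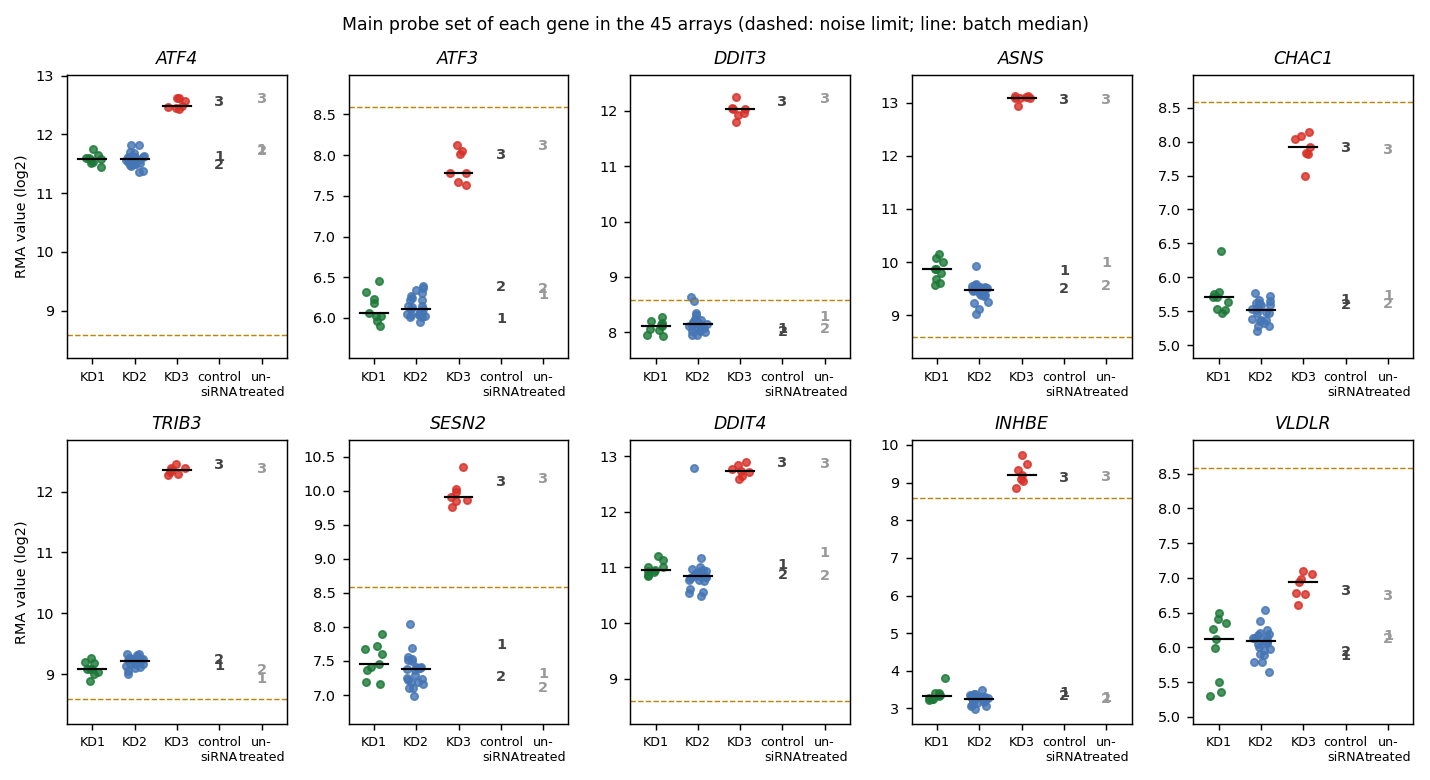
RMA value (log2) of the main probe set of each of the 10 genes in the 45 arrays, with 1 point per siRNA array in batches KD1 (n = 9), KD2 (n = 23) and KD3 (n = 7), a line at each batch median, and the control siRNA and untreated arrays drawn as their numbers. The dashed line is the noise limit of 8.59. KD3, control 3 and untreated 3 sit together above the other arrays, and a single KD2 point, PIK3CB siRNA, reaches the KD3 level of DDIT4.

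Among the transcription factors, ATF4 itself is regulated largely by translation. Its log2 value was 11.44, 11.58 and 11.75 (lowest, median and highest array) in KD1, 11.36, 11.59 and 11.83 in KD2 and 12.43, 12.48 and 12.62 in KD3. The KD3 range lay 0.60 above the highest other siRNA array, and KD3 minus KD2 was 0.94 (SE 0.05, from the limma fit). DDIT3 encodes CHOP, a C/EBP family factor linked to cell death under prolonged stress. It was at 7.93, 8.11 and 8.28 in KD1, 7.95, 8.15 and 8.64 in KD2, and 11.80, 12.02 and 12.25 in KD3. DDIT3 was thus near or below noise in KD1 and KD2 and well above it in KD3, a difference from KD2 of 3.83 (SE 0.07) with a gap of 3.17 between the ranges. It reached the noise limit in 0 of 9 KD1 arrays, 1 of 23 KD2 arrays and 7 of 7 KD3 arrays, and with KD2 arrays below the limit set to it, KD3 was at least 10.7-fold higher.

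ATF3, a bZIP factor that acts mainly as a repressor in stressed cells, has 3 probe sets that did not move alike. The one with the highest mean was at 5.95, 6.11 and 6.39 in KD2 and 7.64, 7.78 and 8.13 in KD3, all below noise. The second was at 5.01, 5.47 and 6.35 in KD2 and 8.75, 9.08 and 9.29 in KD3, above noise in all 7 KD3 arrays. KD3 minus KD2 was therefore 1.72 (SE 0.07) by one and 3.55 (SE 0.13) by the other, for which KD3 was at least 1.36-fold above the noise limit. The third was below noise in every siRNA array and differed by 0.04 (SE 0.06).

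Of the metabolic enzymes, ASNS makes asparagine from aspartate and glutamine. Its log2 value was 9.57, 9.87 and 10.16 in KD1, 9.03, 9.48 and 9.93 in KD2 and 12.94, 13.09 and 13.13 in KD3. KD3 arrays differed by less than 0.2 among themselves, and KD3 minus KD2 was 3.64 (SE 0.07, 12.4-fold). CHAC1 degrades glutathione in the cytosol. It was at 5.48, 5.71 and 6.39 in KD1, 5.21, 5.51 and 5.78 in KD2 and 7.50, 7.92 and 8.14 in KD3. No array reached the noise limit for CHAC1, so its difference of 2.41 (SE 0.08) rests on dim signal, although the ranges lay 1.11 apart. A second ASNS probe set was at 3.24 in the median KD2 array and 3.48 in the median KD3 array, well below noise.

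TRIB3, a pseudokinase that restrains ATF4, CHOP and AKT, had the smallest SD of the 10 genes within KD2 (0.08) and KD3 (0.06), but not within KD1 (0.11). It was at 8.89, 9.09 and 9.26 in KD1, 9.01, 9.22 and 9.34 in KD2 and 12.28, 12.35 and 12.45 in KD3. The ranges lay 2.94 apart, and KD3 minus KD2 was 3.15 (SE 0.04, 8.86-fold) and 3.57 (SE 0.08) by the second probe set. SESN2, a leucine sensor that holds back mTORC1, was at 7.17, 7.46 and 7.89 in KD1, 6.98, 7.38 and 8.04 in KD2 and 9.76, 9.91 and 10.35 in KD3. Its 2 probe sets gave 2.60 (SE 0.09) and 2.67 (SE 0.11), and since every KD2 array lay below noise, the first gave at least 2.59-fold against the noise limit. DDIT4, another inhibitor of mTORC1 signalling that is also known as a hypoxia-induced gene, was at 10.85, 10.95 and 11.21 in KD1, 10.49, 10.85 and 12.78 in KD2 and 12.59, 12.74 and 12.90 in KD3. It was well above noise in every array, and KD3 minus KD2 was 1.83 (SE 0.14, 3.57-fold).

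INHBE encodes the activin βE subunit, a secreted protein best known from liver. It was at 3.22, 3.34 and 3.81 in KD1 and 3.0, 3.26 and 3.50 in KD2, far below noise, and at 8.87, 9.20 and 9.74 in KD3, above noise in 7 of 7 arrays. KD3 minus KD2 was 6.01 (SE 0.07), which was rank 1 of 19775 genes between the measured means, but against the noise limit KD3 was at least 1.59-fold higher. VLDLR, a receptor for triglyceride-rich lipoproteins and reelin, had the smallest mean difference between KD3 and KD2 of the 10. It was at 5.30, 6.12 and 6.50 in KD1, 5.64, 6.08 and 6.53 in KD2 and 6.60, 6.94 and 7.10 in KD3, below noise throughout, with a gap of 0.07 between the ranges and a difference of 0.82 (SE 0.11). By size of the difference between measured means, DDIT3 ranked 10 among all genes, ASNS 11, TRIB3 18, SESN2 31, CHAC1 38, DDIT4 88, ATF3 109, ATF4 458 and VLDLR 632, where the KD2 values of DDIT3, SESN2, CHAC1, ATF3 and VLDLR lay below noise. With all values below the noise limit set to it, ASNS ranked 2, DDIT3 3, TRIB3 5, DDIT4 27, SESN2 58, ATF4 170 and INHBE 348, and CHAC1, ATF3 and VLDLR had no difference left.

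KD1 and KD2 did not show this separation. The ranges of KD1 and KD2 overlapped in 10 of 10 genes, as they did in most genes measured. All KD1 arrays lay above all KD2 arrays in only 5.30% of all genes and below in 2.38%, so this count is not particular to the 10. KD1 minus KD2 had a median of 0.04, with 6 of 10 genes higher in KD1. The largest difference was that of ASNS, 0.41 (SE 0.07), followed by CHAC1 at 0.23 (SE 0.08), and the second probe sets of TRIB3 and SESN2 gave 0.58 (SE 0.07) and 0.49 (SE 0.10) where their main ones gave -0.11 and 0.13.

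The arrays without a targeting siRNA split the same way. Control siRNA array 3 and untreated array 3 lay within the KD3 range in 10 of 10 genes, and control and untreated arrays 1 and 2 lay within the range of KD1 and KD2 in 10 of 10. DDIT3, for instance, was at 8.06, 8.0 and 12.16 in control siRNA arrays 1, 2 and 3 and at 8.27, 8.06 and 12.21 in untreated arrays 1, 2 and 3. INHBE was at 3.41, 3.33 and 9.12 in the control siRNA arrays and at 3.27, 3.25 and 9.14 in the untreated ones. The high values were therefore present in an array of cells labelled as untreated, although this array is nearly the same as control siRNA array 3 and the 2 cannot be counted as independent. In 9 of 10 genes, KD3 with these arrays lay above the other 36 arrays, as in 5.91% of all genes.

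Control siRNA and untreated cells had close mean values in these genes, but the spread within each group was wide. With 3 arrays in each group, control minus untreated lay between -0.14 (ATF4) and 0.18 (SESN2) on the log2 scale, whereas the SD within a group ran from 0.34 to 3.40. None of the 10 was called, each with an adjusted p of 1.0 in limma over all probe sets, nor was any other gene (0.00% called), and limma gave an unadjusted p under 0.05 for 97 of all 54675 probe sets. Without array 3 of each group the differences lay between -0.24 and 0.29, again with adjusted p of 1.0. With the replicate number as a block in limma, a pairing that was assumed, the lowest adjusted p was 0.874. The SE of the difference in the unblocked comparison ran from 0.29 (VLDLR) to 2.09 (INHBE) and was 1.47 for DDIT3. In genes such as INHBE and DDIT3, differences of 2-fold or more were therefore not detectable, and the lack of calls does not show that the groups were alike.

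Some other measures moved with KD3 too. The log2 difference between the 3′ and 5′ probe sets of ACTB, a sign of RNA integrity and labelling, was 1.01 to 1.76 in KD1, 1.09 to 2.08 in KD2, 0.51 to 0.66 in KD3, 0.57 in control siRNA array 3 and 0.45 in untreated array 3. The same measure for GAPDH had medians of 0.07 in KD1, -0.06 in KD2 and -0.13 in KD3, so by GAPDH it was KD1 that lay farther from KD2. S100B was lower in KD3 than in KD2 by limma, at -2.28 (adjusted p = 1.94e-27), as were MITF, one of the KD3 targets, at -1.73 (adjusted p = 6.72e-15), and SOX10, the melanocyte lineage factor, at -0.68 (adjusted p = 1.08e-13). S100B was at 7.69 in control siRNA array 3 and 7.80 in untreated array 3, beside a KD3 mean of 7.66 and a KD2 mean of 9.94. That KD3 mean and the KD3 median of MITF (7.47) lie below noise, so the size of these 2 differences is uncertain. Of the 8 melanocyte markers measured, 4 were lower in KD3 and 4 were not called, with a median difference of -0.14, where 27.0% of all genes were lower. The part of these measures in the values of the stress response genes was not tested.

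Other genes of the pathway were followed in 5 lists that hold none of the 10 genes, and these were tested between the batches in limma over all 54675 probe sets. Of 61 measured genes, 50 were higher in KD3 than in KD2 and 8 lower at an adjusted p under 0.05, where 20.5% of all genes were higher and 27.0% lower. At least 2-fold higher were 33, beside 1.95% of all genes, and 0 were 2-fold lower, beside 2.22%. The median difference of the 61 was 1.14, and in 44 of them all KD3 arrays lay above all KD2 arrays (8.26% of all genes). Between KD1 and KD2, 22 of the 61 were higher in KD1 and 18 lower, with a median of 0.01, beside 26.2% and 22.9% of all genes. The lists were written with earlier results of these data known, so these counts and p-values are not independent support. The p-values measure the spread between arrays within batches, and a batch cannot be told apart from its siRNAs.

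Amino acid synthesis and one-carbon metabolism rose in 10 of 11 genes. ALDH1L2, a mitochondrial folate enzyme, was at 5.55 ± 0.33 (SD, n = 23) in KD2 and 9.45 ± 0.17 (n = 7) in KD3, a difference of 3.90 (adjusted p = 1.88e-28), or at least 1.82-fold against the noise limit. CTH, which makes cysteine, rose by 3.31 (adjusted p = 1.82e-28), PCK2 by 2.48 and the serine enzyme PSPH by 2.25. All 4 were below noise in 23 of 23 KD2 arrays and above it in 7 of 7 KD3 arrays. ALDH18A1, of proline synthesis, fell by 0.27. Amino acid transporters rose in 9 of 10, led by SLC3A2 (2.35), the heavy chain shared by several carriers, its partner SLC7A11 (1.98), the cystine carrier, then SLC7A5 (1.40) and SLC7A1 (1.32), and the dim SLC7A3 did not pass (0.04). Aminoacyl-tRNA synthetases, which charge tRNAs, rose in 11 of 11, all above noise. SARS1 was at 10.7 ± 0.10 (SD, n = 23) in KD2 and 12.8 ± 0.07 (n = 7) in KD3, a difference of 2.13 (adjusted p = 3.08e-34), and YARS1 rose by 1.76, WARS1 by 1.63 and GARS1 by 1.57.

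Other targets and partners of ATF4 and CHOP rose in 14 of 15. GDF15, a stress-induced circulating cytokine, was at 6.64 ± 0.80 (SD, n = 23) in KD2 and 12.6 ± 0.25 (n = 7) in KD3, a difference of 5.96 (adjusted p = 2.74e-23). It was at or above noise in 2 of 23 KD2 arrays and 7 of 7 KD3 arrays, and with KD2 arrays below the limit set to it, KD3 was at least 15.8-fold higher. The chromatin protein gene NUPR1 rose by 3.50, the bZIP factor CEBPG by 2.71 and the ER-phagy receptor CCPG1 by 2.24, all 3 below noise in every KD2 array and NUPR1 also in 4 of 7 KD3 arrays. Of the 20 genes with the largest difference between measured means, 4 were among the 10 stress response genes and another 4, GDF15, ALDH1L2, NUPR1 and CTH, were in these lists. The machinery upstream of ATF4 did not move together, with 6 of 14 genes of the eIF2 kinases, eIF2, eIF2B and phosphatase subunits higher and 7 lower. Its largest change was in PPP1R15A (GADD34), the stress-induced phosphatase subunit that reverses eIF2 phosphorylation and is itself a target of the response, at 7.66 ± 0.12 in KD2 (SD, n = 23) and 9.99 ± 0.20 in KD3 (n = 7), or at least 2.65-fold against the noise limit, which no KD2 array reached. The kinases EIF2AK1, EIF2AK2, EIF2AK3 and EIF2AK4 were lower in KD3, with log2 differences of -0.31, -0.26, -0.29 and -0.40. EIF2AK3 was below noise in every KD2 and KD3 array, and EIF2AK2 was at or above it in 21 of 23 KD2 arrays and 2 of 7 KD3 arrays.

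**Figure D2:**
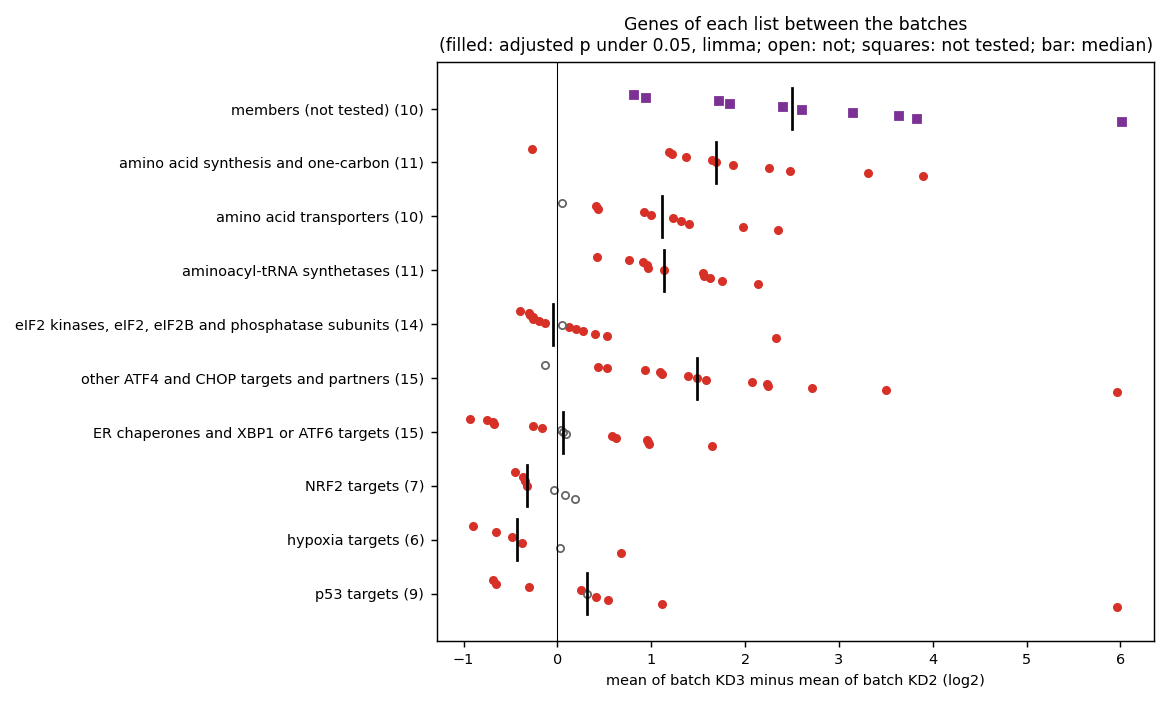
Difference in mean log2 value between KD3 and KD2 for each measured gene of each list, with the number of genes in parentheses; filled points passed an adjusted p of 0.05 in limma, open points did not, squares are the 10 stress response genes, which were not tested, and bars are medians. The lists of amino acid supply, synthetases and other targets lie to the right of 0 but for ALDH18A1 (-0.27) and KLHL24 (-0.13), with medians of 1.69, 1.11, 1.14 and 1.49, and the eIF2 and ER chaperone lists lie around it.

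The other branches of the unfolded protein response and neighbouring stress pathways gave mixed counts. ER chaperones and targets of XBP1 or ATF6 were higher in 6 of 15 and lower in 6, with a median of 0.06. Those higher were led by HERPUD1 (1.65), which ATF4 is also known to induce, SEL1L (0.97) and DNAJB9 (0.97), and those lower by CALR (-0.94), a calcium-binding chaperone. HSPA5, the central ER chaperone BiP, was at 13.0 ± 0.10 in KD2 (SD, n = 23) and 13.1 ± 0.05 in KD3 (n = 7) and did not pass (adjusted p = 0.0774). NRF2 targets were higher in 0 of 7 and lower in 4, led by the glutathione synthesis genes GCLC (-0.45) and GCLM (-0.37). Hypoxia targets were higher in 1 of 6, PDK1 (0.67), and lower in 4, led by ADM (-0.90). ADM was at or above noise in 2 of 23 KD2 arrays and 0 of 7 KD3 arrays, and differed by -0.07 with values below the limit set to it. This list holds neither DDIT4, named above as hypoxia-induced (1.83), nor VEGFA (2.24), which was counted with the ATF4 and CHOP targets. Both were higher in KD3. Of 9 p53 targets 5 were higher and 3 lower, and the highest of them, GDF15 and TNFRSF10B, are also on the list of ATF4 and CHOP targets.

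Within a batch, most values of the 10 genes lay near the batch median, as they did for genes in general. Of 390 values (10 genes in 39 arrays), 383 lay within 0.5 of the batch median on the log2 scale, as did 98.7% of values over all genes. This count is therefore not particular to the 10. The SD within a batch ran from 0.06 to 0.47. A single value was 2-fold or more off, DDIT4 after PIK3CB siRNA, where 0.0523% of all gene and array pairs were. With 1 array for each siRNA, these are values without a test.

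**Figure D3:**
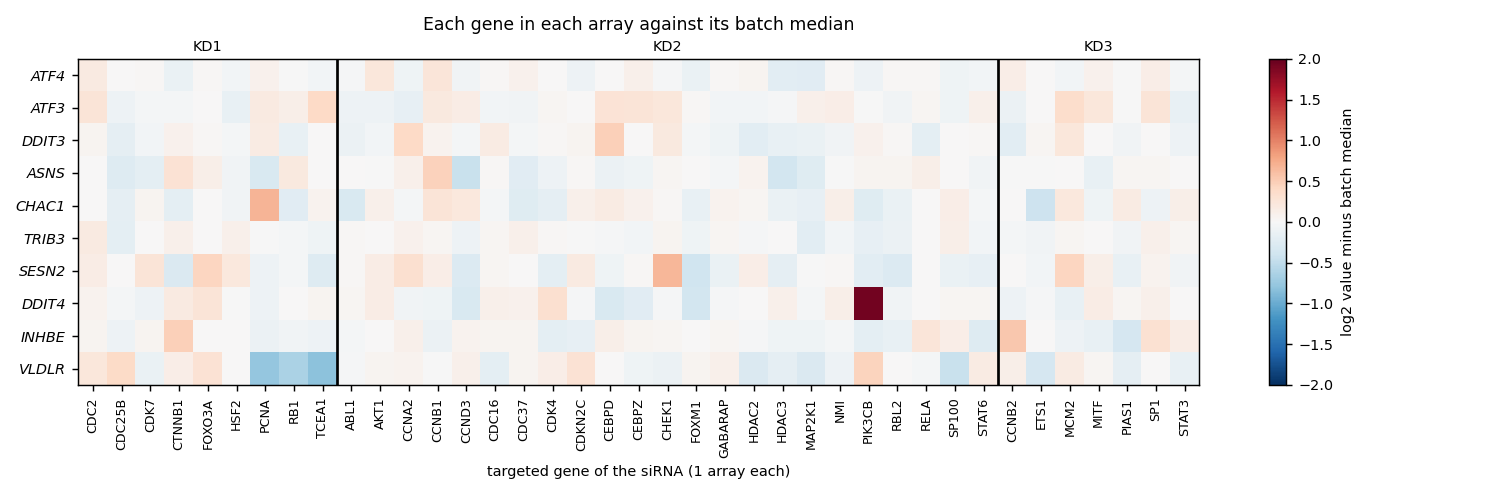
Log2 value of each of the 10 genes (rows) in each siRNA array (columns, grouped by batch) less the median of its batch, on a colour scale from -2 to 2. The dark square is DDIT4 after PIK3CB siRNA (1.94), and the bluest are VLDLR after PCNA, RB1 and TCEA1 siRNA.

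After siRNA against PIK3CB, a catalytic subunit of PI3-kinase, DDIT4 was at 12.78 against a KD2 median of 10.85, a difference of 1.94 (3.83-fold). The next highest deviation of DDIT4 was 0.32, after CDK4 siRNA, and the next highest value in KD1 or KD2 was 11.21. In this array 0.303% of genes were 2-fold or more above their batch median, and PIK3CB itself was at 45.5% of it. Counted in both directions, 0.319% of genes were 2-fold or more off, the highest share of the 39 arrays. The lowest DDIT4 deviation was -0.36, after FOXM1 siRNA. Of the 10 genes, VLDLR also had its highest deviation after PIK3CB siRNA (0.45, to 6.53), and of the other 8 genes 2 were above the batch median, with ATF4 at -0.10 and TRIB3 at -0.16. Of the 15 other targets and partners of ATF4 and CHOP, 11 were above the batch median in this array, with NFIL3 at 1.0, VEGFA at 0.72, CEBPB at 0.70 and STC2 at 0.51 but GDF15 at -0.44, and their median of 0.08 was rank 3 of the 39 arrays. NFIL3 and STC2 were below noise in every KD2 array. Of the 6 hypoxia targets, 5 had their highest deviation of the 39 arrays in this array: ADM (1.88), ANKRD37 (0.79), PDK1 (0.68), BNIP3 (0.50) and NDRG1 (0.43). Their median deviation, 0.59, was rank 1 of the 39 arrays, with the next at 0.28. How many of all genes had their highest deviation in this array was not counted, and the list was written with earlier results known.

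SESN2 was highest after siRNA against CHEK1, the checkpoint kinase that acts on stalled replication. It was at 8.04 there against a KD2 median of 7.38, a deviation of 0.66 between values that both lie below noise, and CHEK1 was at 41.2% of its batch median. In the same array 9 of 9 p53 targets were above the batch median, and 8 of the 9 had their highest deviation of the 39 arrays, including GDF15 (2.65), CDKN1A (2.08) and SESN1 (0.88), a relative of SESN2. The share of all genes with their highest deviation there was not counted, and this list too was written with earlier results known. The second SESN2 probe set deviated by 0.43 after CHEK1 siRNA and was highest after CCNA2 siRNA (0.74), the array with the second highest median of the p53 targets, 0.61 beside 0.78. ATF3 by its second probe set was likewise highest after CHEK1 (0.88) and second after CCNA2 siRNA (0.66), but its main probe set, in which TCEA1 siRNA was highest (0.40), had its lowest deviation after CCNA2 siRNA (-0.16). Both ATF3 probe sets were below noise in these arrays. The lowest SESN2 deviation, -0.40, was after FOXM1 siRNA, where the second probe set gave 0.08.

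**Figure D4:**
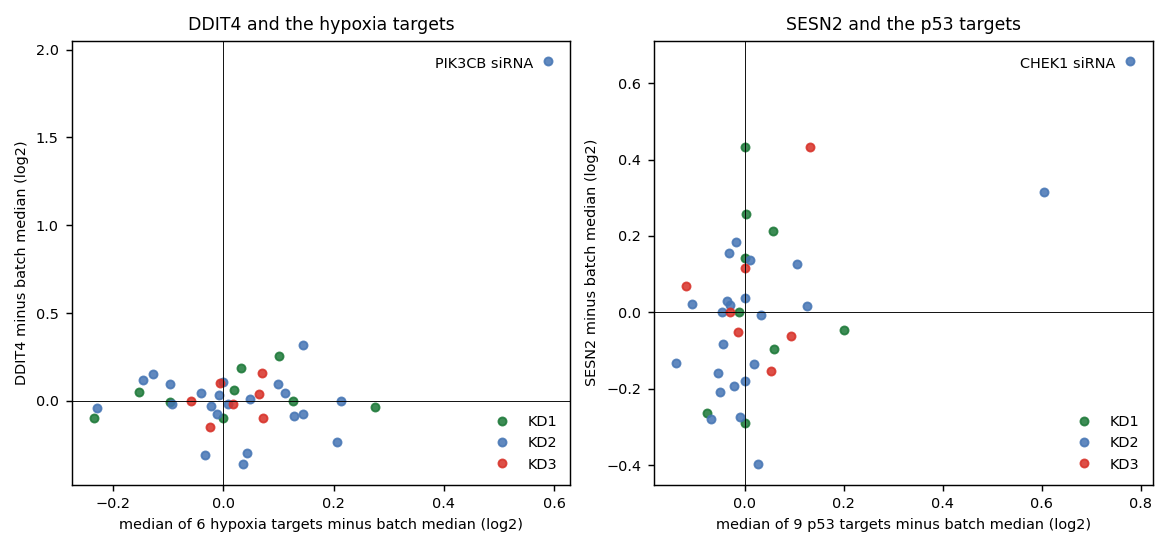
Left, DDIT4 against the median of 6 hypoxia targets; right, SESN2 against the median of 9 p53 targets, each as log2 value less the batch median, with 1 point for each of the 39 siRNA arrays coloured by batch. PIK3CB siRNA is the farthest point in the left panel (0.59 and 1.94) and CHEK1 siRNA in the right (0.78 and 0.66).

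The other genes had smaller extremes. DDIT3 was highest after siRNA against CEBPD, a C/EBP family member (0.48, to 8.64), then CCNA2 (0.40), and lowest after CCNB2 siRNA (-0.22). ASNS was highest after CCNB1 (0.46) and lowest after CCND3 siRNA (-0.44), and ATF4 was highest after CCNB1 (0.24) and lowest after MAP2K1 siRNA (-0.23). CHAC1 was highest after siRNA against the replication clamp PCNA (0.69, to 6.39, below noise) and lowest after ETS1 siRNA (-0.42). TRIB3 ran from -0.21 after MAP2K1 to 0.18 after CDC2 siRNA by its main probe set and from -0.38 after TCEA1 to 0.53 after CDC2 siRNA by the second, which lay below noise in KD1 and KD2, and INHBE from -0.33 after PIAS1 to 0.54 after CCNB2 siRNA.

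VLDLR varied most within KD1. It was at 5.30 after TCEA1, 5.36 after PCNA and 5.49 after RB1 siRNA, while the other 6 KD1 arrays lay between 5.99 and 6.50, so these 3 stood apart from the rest of their batch. All of these values are below noise. Over the 10 genes together, the array of MAP2K1 siRNA, against the ERK-activating kinase MEK1, had the lowest median deviation (-0.15, with 9 of 10 genes below the batch median). That of HDAC3 siRNA was close to it (-0.14, with 8 of 10 below). The array of CDC2 siRNA had the highest (0.10, with 8 of 10 above), nearly level with those of MCM2 and CCNB1 siRNA (both 0.10), so neither extreme stood apart.

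Once the batch was taken out, the median Spearman rho over the 45 pairs of the 10 genes across the 39 siRNA arrays was 0.09, beside 0.0025 over all pairs of genes, and 0.21 among the 4 of the 10 genes with a median at or above noise. Of the 45 pairs 29 were positive, and 0 reached 0.5, as 0.515% of all pairs of genes did, a share too small for the count to be read. The highest was TRIB3 with INHBE (0.49), followed by TRIB3 with SESN2 (0.41) and ATF4 with SESN2 (0.38), and the lowest CHAC1 with DDIT4 (-0.36). Without centring on the batch the median rho was 0.46. These are descriptions over arrays that share batches and normalisation. The genes above noise whose centred values were most like the mean of the 10 over the 39 arrays were EIF5 (rho 0.58), IER2 (0.57), RBM42 (0.56), EGR1 (0.56), ALAS1 (0.55), PACSIN2 (0.55), NAP1L4 (0.54), MRPL37 (0.54), CCND3 (0.53) and TUBB3 (0.53). These were picked for the highest rho out of the genes at or above noise, 4800 with the members, so high values were favoured in advance. The rho of the 10 genes themselves with their mean ran from 0.16 (ATF3) to 0.56 (SESN2). Shared regulation was not tested. KD3 minus KD2 was 1.34 for IER2 and 2.12 for EGR1, both immediate early genes, but -0.99 for EIF5 and -0.67 for CCND3.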

How the data were processed

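The data are 45 Affymetrix U133 plus 2.0 arrays of A375 RNA. The authors normalised them with RMA (version not given in the sources used here), and deposited RMA intensities on a linear scale. The log2 of these was used with no further normalisation, so batch differences remain in them. Conditions came from the labels and batches from the study's list of targets; the labels name 39 of the study's 45 targets, and 6 were not analysed here. Of 54675 probe sets, 41097 had 1 gene name, 1801 several and 11777 none. Precision is limited by how many arrays there are.

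The members and lists were chosen with earlier results of these data known, so members were not tested between batches. Named genes were all members, up to 4 genes of each list with the largest difference among those called, the siRNAs with the highest and lowest value of each member and the 10 genes most like the members' mean. Comparisons of batches and of control siRNA with untreated used limma 3.58.1 (R 4.3.3), adjusted by Benjamini-Hochberg at 0.05, tested on simulated data. Where nothing says that arrays came from separate cultures, p-values measure only the spread between these arrays. The fit with the replicate number as a block assumed that equal numbers pair a control siRNA array with an untreated one. The deviations of such pairs correlated with r of 0.580, 0.671 and 0.890, the last being the near copies. These values cannot decide whether the numbers mark pairs. Arrays with unequal numbers were not compared, and array 3 lies apart from arrays 1 and 2 in both groups. Spearman's rho used values centred on the batch median, in Python 3.11.15 with scipy 1.17.1. Promoter windows and gene symbols are RefSeq's (GRCh38.p14).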

Additional observations from a re-analysis of the deposited data

How the results depend on the processing

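Array-median centring, quantile normalisation, medians in place of means and dropping the extreme arrays of each batch left 40 of 40 KD3 minus KD2 values of the 10 genes within 1 SD of those given. Their median over the 10 genes was 2.12 when each gene with other probe sets was given the median of those and the rest kept their main one. Among probe sets at or above the noise limit, which are fewer, 5825 were called between KD3 and KD2, 5425 between KD1 and KD2 and 6046 between KD3 and KD1, in place of 22850, 24320 and 26293. In this set 32 of 40 pathway genes were higher in KD3 than in KD2, beside 2652 of all 7613 probe sets. Leaving out each siRNA array in turn gave 21541 to 23153, 22745 to 24583 and 25230 to 26468 called among all probe sets. The control siRNA and untreated comparison called 0 of 54675 probe sets with the replicate number as a block (1643 with an unadjusted p under 0.05), without any single array and without both arrays 3 (1135). DDIT4 after PIK3CB siRNA exceeded the mean of all 3 control siRNA arrays by 1.18 and that of arrays 1 and 2 by 1.82, a setting chosen after seeing the data since array 3 lies at the KD3 level. Of 19 other extremes by siRNA, 3 changed sign against the mean of control arrays 1 and 2, also chosen after seeing the data, and 3 against the median of the other 44 arrays, in neither case any of the 15 in KD1 and KD2. Against the mean of all 3 control arrays 9 did, 6 of them in KD1 and KD2. By another probe set 5 of 10 changed sign. The median rho of the 10 genes was 0.46 without batch centring and 0.21 among the 4 genes at or above the noise limit. Dim signal limits CHAC1, VLDLR and the main probe set of ATF3 in all arrays and INHBE, SESN2 and DDIT3 outside the KD3 level. The ranks and bounds that set values below the noise limit to it were also added after seeing the data.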
